A study of Mus musculus with 19 samples.

Results

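The 10 genes described here encode serine palmitoyltransferase, the proteins that restrain it and the enzymes that turn its product into ceramide. They are Sptlc1, Sptlc2, Sptlc3, Ormdl1, Ormdl2, Ormdl3, Cers2, Cers5, Cers6 and Degs1, and all 10 were found among the 22180 mouse genes measured. Each was taken from the transcript cluster, the set of probes that the array reads as 1 unit, whose annotation gives that symbol alone. Cers2 has 2 such clusters, and the one with the higher mean over all 19 arrays was used. The set was chosen from the fall of Sptlc3 in Med1 knockout cells, so knockout against wild-type values in the cells are given below as a description, without p-values.

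MED1 is a subunit of Mediator, the complex that links DNA-bound transcription factors to RNA polymerase II. The study deleted Med1 in 3T3-L1 cells, a mouse preadipocyte line that becomes fat cells after a hormonal cocktail, and in mouse interscapular brown fat, and measured RNA on 19 Affymetrix arrays. The cells were wild type or MED1-KO, a knockout made with CRISPR/Cas9 whose RNA was pooled from individual clones, at day 0 and day 2 by title, with 2 arrays in each of the 4 groups. Embryonic brown fat at E17.5 came from Myf5CreMed1f/w controls, which carry the Cre driver and 1 floxed allele beside a wild-type one (3 arrays), and from Myf5CreMed1f/f knockouts (4 arrays). Myf5 drives Cre in precursors of brown fat and of skeletal muscle. Adult brown fat at 10 weeks came from Med1f/f controls without Cre (2 arrays) and AdipoqCreMed1f/f knockouts (2 arrays), where the adiponectin promoter drives Cre in adipocytes and the other cells of the tissue keep Med1. The knockout cells are clones and the wild-type cells the parental line, so the mutation and the cloning cannot be told apart. Nothing in the labels says that replicates are separate cultures or animals, and p-values then measure only the spread between arrays.

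Serine palmitoyltransferase joins serine to palmitoyl-CoA and so starts the making of all sphingolipids. Its core pairs SPTLC1 with a catalytic partner, SPTLC2 or SPTLC3, and the ORMDL proteins in the membrane of the endoplasmic reticulum hold the enzyme back when ceramide is plentiful. Ceramide synthases then add a fatty acid to the sphingoid base, CERS2 a very long one and CERS5 and CERS6 mostly palmitate, and the desaturase DEGS1 turns dihydroceramide into ceramide. Ceramide in fat tissue is known for blunting insulin signalling and, in brown fat, for lowering thermogenic activity.

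The promoters of the genes that the results turn on are shown as the 250 bases before the transcription start in RefSeq (GRCm38.p6), 5′ to 3′, in lower case with each CG pair in capitals. Sptlc3 lies on the plus strand of chromosome 2 and its window is chr2:139493663-139493912. Sptlc2, the other catalytic subunit, has its window on the minus strand at chr12:87388356-87388605. The windows of Ormdl3 (chr11:98587246-98587495) and Cers5 (chr15:99772516-99772765) are on the minus strand too.
Sptlc3: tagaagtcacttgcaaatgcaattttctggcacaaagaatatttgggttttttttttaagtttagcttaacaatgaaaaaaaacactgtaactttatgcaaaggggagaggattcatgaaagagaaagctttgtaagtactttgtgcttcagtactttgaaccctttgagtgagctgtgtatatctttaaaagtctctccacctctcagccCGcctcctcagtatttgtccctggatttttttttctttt
Sptlc2: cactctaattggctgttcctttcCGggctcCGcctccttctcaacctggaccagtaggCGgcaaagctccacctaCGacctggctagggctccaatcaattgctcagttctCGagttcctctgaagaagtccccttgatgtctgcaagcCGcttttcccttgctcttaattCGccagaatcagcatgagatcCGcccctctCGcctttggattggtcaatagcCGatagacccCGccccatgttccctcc
Ormdl3: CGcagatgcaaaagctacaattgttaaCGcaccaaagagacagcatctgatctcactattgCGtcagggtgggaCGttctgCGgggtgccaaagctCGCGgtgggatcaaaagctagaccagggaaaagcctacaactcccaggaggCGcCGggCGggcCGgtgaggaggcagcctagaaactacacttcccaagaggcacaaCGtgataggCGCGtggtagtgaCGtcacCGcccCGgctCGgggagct
Cers5: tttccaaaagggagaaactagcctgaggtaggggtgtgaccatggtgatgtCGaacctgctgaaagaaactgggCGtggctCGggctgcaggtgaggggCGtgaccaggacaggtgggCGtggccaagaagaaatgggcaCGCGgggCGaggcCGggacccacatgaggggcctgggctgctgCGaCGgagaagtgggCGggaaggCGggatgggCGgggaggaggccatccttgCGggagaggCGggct

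The Sptlc3 window held 1 CG pair and had a GC content of 35.6%. As few CG pairs were found in 18.8% of the 32851 RefSeq promoters of this length, whose median was 6. The 10 other windows of the set (Cers2 has 2) held 5 to 25 CG pairs, among them 11 in Sptlc2, 18 in Ormdl3 and 16 in Cers5. Motifs were searched on both strands as plain letters. A GC box (GGGCGG) lay in 7 of the 11 windows and in 32.7% of all promoters, and a CCAAT box (CCAAT) in 6 of 11 and in 33.8% of all. The Sptlc3 window held neither, nor the TATA box letters TATAAA, which were in 0 of the 11 windows and in 12.4% of all promoters. It did hold a match to TTGCNNAA, a letter pattern bound by C/EBP factors, starting 157 bases before the start, as did Cers2 and Ormdl2 and 9.56% of all promoters. Ormdl3 alone among the 11 windows held the cyclic AMP response element TGACGTCA, 28 bases before its start, a match found in 1.55% of all promoters. The E-box CACGTG was found in 3 windows, those of Cers2, Cers6 and Degs1, and in 6.02% of all. AGGTCA, the core of nuclear receptor sites, was in 1 window, of Cers2, and in 14.0% of all. A match is a match of letters and shows no binding.

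All values are log2 RMA signals, in which a step of 1 is a doubling, and a difference is knockout minus control unless said otherwise. The deleted gene itself was read first. Med1 was 8.23, 8.55, 8.48 and 8.28 on the 4 wild-type cell arrays and 7.07, 7.08, 7.16 and 7.0 on the knockout arrays of the same day and replicate, with no overlap. In embryonic brown fat Med1 was 6.94, 7.33 and 7.82 in controls and 7.0, 7.10, 7.10 and 6.88 in knockouts, and the groups overlapped (difference -0.35 ± 0.19, SE; limma adjusted p = 0.37). In adult brown fat it was 5.99 and 6.90 in controls and 5.28 and 5.13 in knockouts (-1.24 ± 0.31; adjusted p = 0.19). The files do not say which part of Med1 its probes cover, so this check is limited. Within an experiment the arrays were alike in overall level, with median signals over all clusters of 4.69 to 4.79 (cells), 3.49 to 3.57 (E17.5) and 2.87 to 2.89 (10 weeks), and levels are compared within an experiment only. For 4 of the 8 cell arrays the source label gives the other day than the title. The source label puts every replicate 1 array before and every replicate 2 array after stimulation, so each of its groups mixes both title days. A step by source label is therefore replicate 2 minus replicate 1 and cannot test a step between the title days. By title, the adipocyte gene Fabp4 read 3.3 to 3.4 at day 0 and 5.77 to 6.4 at day 2 in wild-type cells. The days below follow the title, with values by source label where they change a call or turn a difference of Sptlc3. The labelled material carried its markers: the fibroblast gene Pdgfra read 10.82 to 11.11 in the cells, and Ucp1, the uncoupling protein of brown fat, 10.07 to 11.59 in the embryonic and 12.09 to 12.5 in the adult controls.

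In the knockout cells Sptlc3 was low on every array and the other 9 genes lay close to their wild-type levels. Sptlc3 read 6.66, 6.45, 7.16 and 6.98 on the wild-type arrays of day 0 replicate 1, day 2 replicate 1, day 0 replicate 2 and day 2 replicate 2. The knockout arrays of the same 4 pairs read 4.24, 5.03, 4.18 and 3.72. Every knockout array lay under every wild-type array, and the pair differences were -2.42, -1.42, -2.98 and -3.25. The mean was 6.81 ± 0.32 (SD, n = 4) in wild-type and 4.29 ± 0.54 in knockout cells, a difference of -2.52 ± 0.26 (SE), or 5.72-fold lower. The lowest knockout array (3.72) was only slightly above its own lower quartile over all clusters (3.51). That quartile was 3.49 to 3.56 in the cell arrays, so the size of the fall is less certain there.

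**Figure D1:**
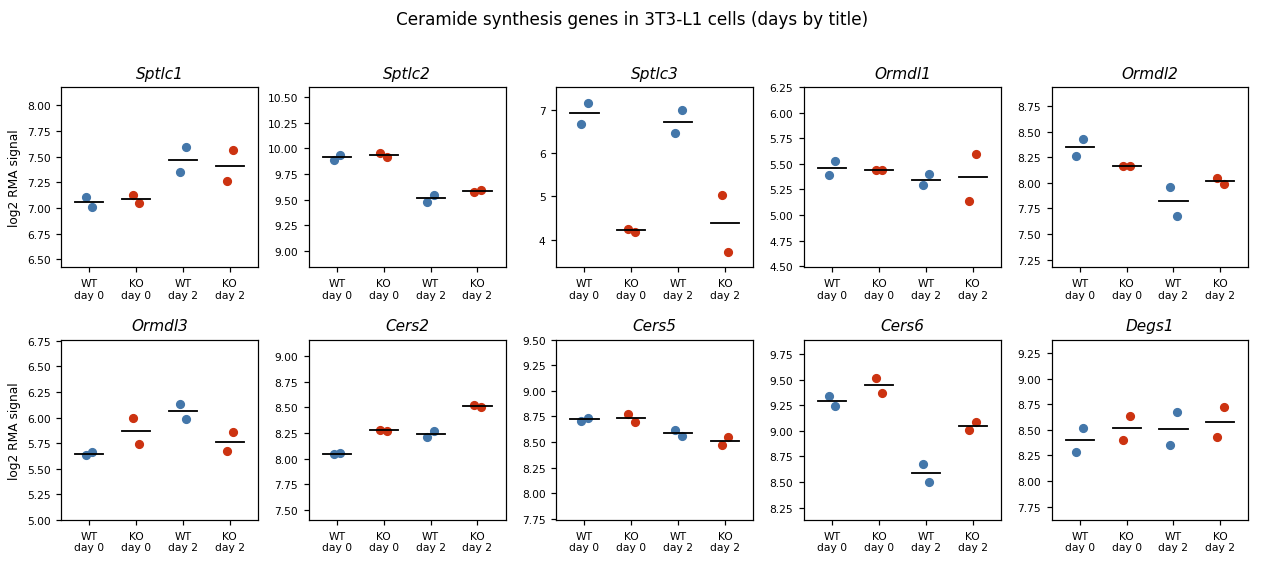
Log2 signal of the 10 ceramide synthesis genes on each of the 8 3T3-L1 arrays (y axis), by group (x axis: wild type or knockout, day 0 or day 2 by title). Points are arrays and horizontal lines the group means; each panel has its own range. The Sptlc3 points of the knockout cells lie between 3.72 and 5.03, all under the wild-type points, which lie between 6.45 and 7.16.

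By day, the order of the Sptlc3 levels was wild type at day 0 (6.66 and 7.16), wild type at day 2 (6.45 and 6.98), knockout at day 2 (5.03 and 3.72) and knockout at day 0 (4.24 and 4.18). Only the step from wild type to knockout in that order lies outside the spread of its neighbours. The knockout difference was -2.70 ± 0.37 at day 0 and -2.34 ± 0.37 at day 2. The knockout arrays of day 2 stood wider apart than those of any other cell group, and the day 2 difference was -1.68 without knockout replicate 2 and -2.99 without knockout replicate 1. By source label, it was -1.92 before stimulation, which is the replicate 1 pairs of both title days, and -3.11 after, the replicate 2 pairs.

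The partner subunits did not follow Sptlc3. SPTLC1 is the subunit every form of the enzyme needs, and its gene read 7.01 to 7.59 in wild-type and 7.05 to 7.56 in knockout cells. Sptlc2, the catalytic alternative to Sptlc3, read 9.89, 9.48, 9.94 and 9.55 on the wild-type arrays in the pair order above and 9.96, 9.58, 9.92 and 9.59 on the knockout arrays. Its pair differences were 0.07, 0.10, -0.03 and 0.05, the mean difference 0.05 ± 0.07, and the groups overlapped. The ORMDL genes encode the inhibitors, and their differences took both signs over the pairs. They ran from -0.15 to 0.20 for Ormdl1, -0.28 to 0.31 for Ormdl2 and -0.46 to 0.38 for Ormdl3. In both replicates Ormdl2 was lower at day 0 (-0.10 and -0.28) and higher at day 2 (0.08 and 0.31). Ormdl3 was higher at day 0 (0.38 and 0.08) and lower at day 2 (-0.46 and -0.13). Among the ceramide synthases, Cers2 was higher in the knockout array of all 4 pairs, by 0.21 to 0.31 (mean 0.25 ± 0.07), and Cers6 too, by 0.12 to 0.58 (0.30 ± 0.10). Degs1, the desaturase, was higher in all 4 pairs by only 0.04 to 0.12, and Cers5 ranged from -0.15 to 0.06.

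A gene is called where its adjusted p over all 22180 genes is under 0.05. Of all genes, 0.289% were called between knockout and wild-type cells over the 4 pairs, 0.185% at day 0 and 0.266% at day 2. Sptlc3 was the 1 member called in each of these, and nothing is read from that, since the fall of Sptlc3 chose the set. The median of the 10 differences over the pairs was 0, as was the median over all genes. The second Cers2 cluster, which is dimmer, had a pair difference of -0.01 ± 0.09 beside 0.25 ± 0.07 for the one used.

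**Figure D2:**
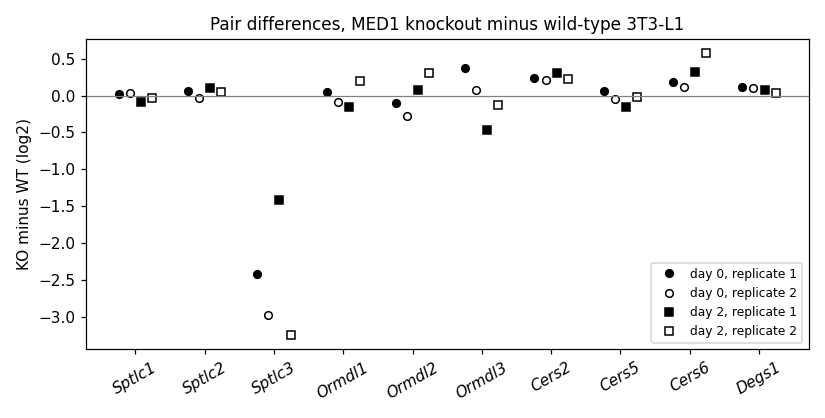
Knockout minus wild-type log2 difference (y axis) of each of the 10 genes (x axis) in the 4 cell pairs of the same day and replicate. Points are pairs and the horizontal line marks 0. Sptlc3 runs from -3.25 to -1.42, while the other 9 genes stay between -0.46 and 0.58.

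Genes whose levels ran most like Sptlc3 over the 8 cell arrays were sought among those with a log2 range of at least 1. Leaving out symbols that start with Gm and a digit, Mir, Snor, Olfr or LOC, or end in Rik, left 2117 genes. The 5 with the highest Pearson r were Pcdh11x, a protocadherin (0.9725), Cd34, a surface sialomucin of stem and progenitor cells (0.9556), Med1 itself (0.9471), Cygb, cytoglobin (0.9294), and Mctp1 (0.9279). All 8 arrays share the split into knockout and wild type, which such a ranking follows, and each of the 5 was lower in the knockout array of all 4 pairs. In embryonic brown fat the same 5 genes differed by -0.35 (Med1) to 0.40 (Cd34), and in adult brown fat by -1.24 (Med1) to 0.97 (Mctp1).

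From day 0 to day 2 the wild-type cells lowered 2 of the 10 genes, the ceramide synthase gene Cers6 and the inhibitor gene Ormdl2. Cers6 read 9.34 and 9.24 at day 0 and 8.68 and 8.50 at day 2, with no overlap. It fell by 0.70 ± 0.13 (1.62-fold; limma adjusted p = 0.0099). Ormdl2 read 8.26 and 8.43 at day 0 and 7.96 and 7.68 at day 2, and it fell by 0.52 ± 0.14 (1.44-fold; adjusted p = 0.047). Of all genes 9.07% were called here, 2012 genes, a share at which 10 genes would hold about 1. Sptlc2 differed by -0.40 ± 0.12 (adjusted p = 0.065), Sptlc1 by 0.41 ± 0.15 (0.14) and Ormdl3 by 0.42 ± 0.14 (0.11), and none of these 3 passed. Sptlc3 differed by -0.20 ± 0.37 (0.81), and the days overlapped. By source label, replicate 2 minus replicate 1, it differed by 0.51. Ormdl2 was not called after leaving out any of 7 of the 8 cell arrays in turn (adjusted p 0.037 to 0.22 over the 8), and Cers6 not without wild-type day 0 replicate 1 or day 2 replicate 2 (0.061 in each). By source label, replicate 2 minus replicate 1, the Cers6 value was -0.14 and the Ormdl2 value -0.06. No gene was called there, which does not test the title days, since each of those groups holds both.

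In knockout cells 0 of 10 members were called between the days, while 5.7% of all genes were (1265). At an unadjusted limma p under 0.05 there were 2 members, Cers6 and Sptlc2, and 3840 genes in all. Cers6 read 9.52 and 9.37 at day 0 and 9.01 and 9.09 at day 2 (-0.39 ± 0.13; adjusted p = 0.14), and Sptlc2 read 9.96 and 9.92 and then 9.58 and 9.59 (-0.35 ± 0.12; 0.14). Ormdl2 read 8.16 on both arrays at day 0 and 8.05 and 7.99 at day 2 (-0.14 ± 0.14; 0.72). Sptlc3 differed by 0.16 ± 0.37 (0.89) by title and by -0.68 by source label, which is replicate 2 minus replicate 1. Whether the day step differs between genotypes is the interaction of genotype and day, for which 0 of 10 members and 0% of all genes were called by limma, with 1 member and 941 genes at an unadjusted p under 0.05. That member was Ormdl3, which read 5.63 and 5.66 at day 0 and 6.13 and 5.99 at day 2 in wild-type cells, and 6.0 and 5.74 and then 5.67 and 5.86 in knockout cells. Its interaction was -0.53 ± 0.20 (unadjusted p = 0.0262, adjusted p = 1, 95% interval -0.97 to -0.08), and by source label it was 0.02. The intervals for Cers6 (-0.11 to 0.71), Ormdl2 (-0.05 to 0.83) and Sptlc3 (-0.80 to 1.53) all include 0. By source label, which compares the knockout difference between replicates and not title days, the Sptlc3 value was -1.19 ± 0.40 (adjusted p = 1). By title, without knockout day 2 replicate 1, the Sptlc3 interaction was -0.29. The mean level of 7 adipocyte markers was 4.17 to 4.29 in wild-type cells at day 0 and 5.53 to 5.56 at day 2, against 4.16 to 4.22 and 4.36 to 4.51 in knockout cells, and the part of this in the member values was not tested.

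**Figure D3:**
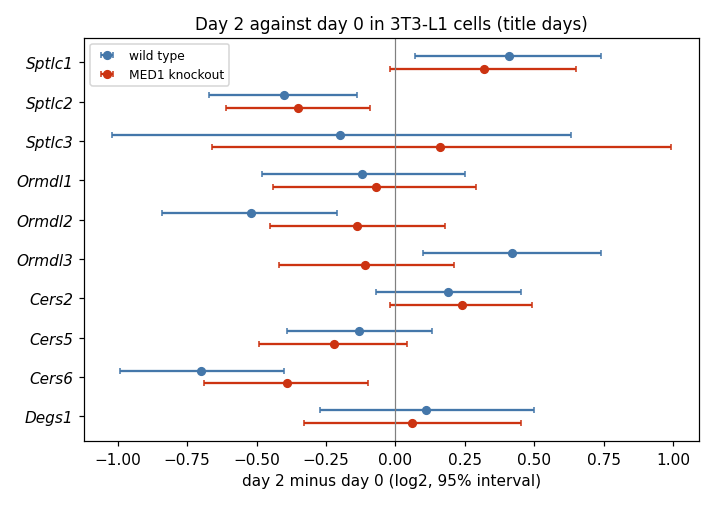
Day 2 minus day 0 log2 difference (x axis) of the 10 genes (y axis) in wild-type and knockout cells, days by title, with 95% intervals from limma. In wild-type cells Cers6 (-0.70) and Ormdl2 (-0.52) are called, and in knockout cells no member is.

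In embryonic brown fat, Ormdl3 was lower in knockouts, Cers5 and Cers6 read higher without passing the test, and Sptlc3 was listed at nearly the same value throughout. ORMDL3 is the inhibitor best known from a childhood asthma locus. Ormdl3 read 5.42, 5.35 and 5.33 in controls and 4.80, 4.91, 4.89 and 4.96 in knockouts, and every knockout array was below every control. It fell by 0.47 ± 0.06 (1.39-fold; adjusted p = 0.044; 95% interval -0.61 to -0.34). It was the 1 member of 10 called, beside 1.16% of all genes (257). The difference kept its size, -0.50 to -0.44, without any 1 of the 7 arrays, but its adjusted p was then 0.051 to 0.11, and in those fits 0% of all genes were called. With the replicate number as a block the value was -0.50 and the adjusted p 0.11.

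Cers6 read 5.82, 5.54 and 5.86 in embryonic controls and 6.23, 6.02, 6.09 and 6.47 in knockouts, with no overlap (0.46 ± 0.13; adjusted p = 0.11). Cers5 read 5.98, 6.15 and 6.06 in controls and 6.55, 6.34, 6.26 and 6.60 in knockouts, again with no overlap (0.37 ± 0.10; 0.099). Sptlc2 read 8.11, 8.06 and 8.14 and then 8.20, 8.22, 8.20 and 8.41 (0.15 ± 0.07; 0.27), apart by less than the range of the knockouts. Those are the catalytic subunit and the synthases that favour palmitate, and none passed. The groups of Sptlc1, Ormdl1, Ormdl2, Cers2 and Degs1 overlapped, with differences of -0.12 to 0.09 and adjusted p of 0.51 to 0.85. Sptlc3 was listed at the same value, 3.11, on 6 of the 7 arrays and at 3.16 on knockout replicate 2. On each of those 6 arrays 19 to 48 other genes carry exactly that value, and 32.8% to 34.6% of genes lie below it. A value tied in this way over arrays and genes gives no usable difference between the groups (0.01 ± 0.04; 0.9), and how it arose was not tested.

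**Figure D4:**
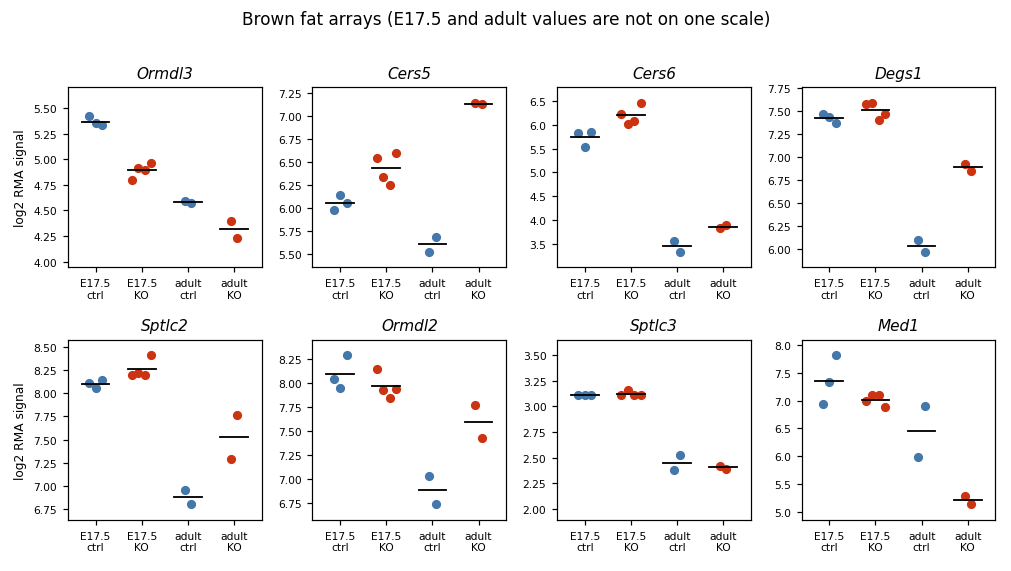
Log2 signal of 7 of the 10 genes and of Med1 on each brown fat array (y axis), by group (x axis: E17.5 and adult controls and knockouts). Points are arrays and horizontal lines the group means; the 2 ages are not on one scale. Ormdl3 lies at 4.80 to 4.96 in embryonic knockouts, under all controls, and Cers5 at 7.13 and 7.15 in adult knockouts, above the controls at 5.53 and 5.69.

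In adult brown fat 5 of the 10 genes were higher in both knockouts than in both controls with an unadjusted p under 0.05, but 0 of 10 were called by limma, beside 0.0271% of all genes (6). Over all genes, 3013 (13.6%) had an unadjusted p under 0.05. The largest of the 10 differences was that of Cers5, which read 5.53 and 5.69 in controls and 7.15 and 7.13 in knockouts. It differed by 1.53 ± 0.14, or 2.89-fold (adjusted p = 0.052; 95% interval 1.18 to 1.88). Degs1 read 6.10 and 5.97 in controls and 6.92 and 6.85 in knockouts (0.85 ± 0.14, or 1.8-fold; 0.1). The synthase and the desaturase lay further from their controls than the replicates of a group did from each other. Neither was called, and 2 arrays a group measure that spread poorly.

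Ormdl2 read 7.04 and 6.74 in adult controls and 7.77 and 7.43 in knockouts (0.71 ± 0.19; adjusted p = 0.21). Sptlc2 read 6.95 and 6.80 and then 7.29 and 7.77 (0.65 ± 0.20; 0.26), and Cers6 3.55 and 3.33 and then 3.82 and 3.90 (0.42 ± 0.15; 0.32). Ormdl3 was the other way, 4.59 and 4.57 in controls and 4.40 and 4.23 in knockouts (-0.27 ± 0.14; 0.5). Sptlc1, whose product every form of the enzyme needs, was 0.28 ± 0.16 higher (0.57), and Cers2 differed by 0.11 ± 0.19 (0.9) and Ormdl1 by -0.17 ± 0.17 (0.79). Sptlc3 read 2.38 and 2.52 in controls and 2.42 and 2.39 in knockouts (-0.04 ± 0.13; 0.96), close to the lower quartile of these arrays (2.22 to 2.24), so a fall such as that of the cells could hardly be seen there. Cers5 passed the threshold in 6 of the 8 other settings (adjusted p 1.7e-06 to 0.057 over the 8) and in none of the 4 fits that leave out an array (0.36 to 0.47). The median of the 10 differences was 0.35 in the adult and 0.06 in the embryo, against 0 and -0.01 over all genes.

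The knockout difference was larger in adult than in embryonic brown fat for Cers5 and Degs1. The adult minus embryo difference was 1.16 ± 0.16 for Cers5 (limma interaction, adjusted p = 0.0072; 95% interval 0.80 to 1.51) and 0.76 ± 0.13 for Degs1 (0.017; 0.48 to 1.04). These were 2 of 10 members called, both upward, beside 1.99% of all genes (441). Ormdl2 (0.83 ± 0.21; 0.072) and Sptlc2 (0.50 ± 0.18; 0.21) did not pass, and Ormdl3 differed by 0.21 ± 0.12 (0.45) between the ages. With any 1 of the 11 brown fat arrays left out the difference was 1.07 to 1.24 for Cers5 and 0.7 to 0.83 for Degs1. This fit takes 1 spread per gene from all 11 arrays, 7 of them embryonic. In the fit of the adult arrays alone neither gene was called (limma adjusted p 0.052 and 0.1). The calls thus rest on a spread taken largely from the embryonic arrays. Age, the Cre driver, the kind of control and the scale of the signals all change between these experiments and cannot be told apart.

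**Figure D5:**
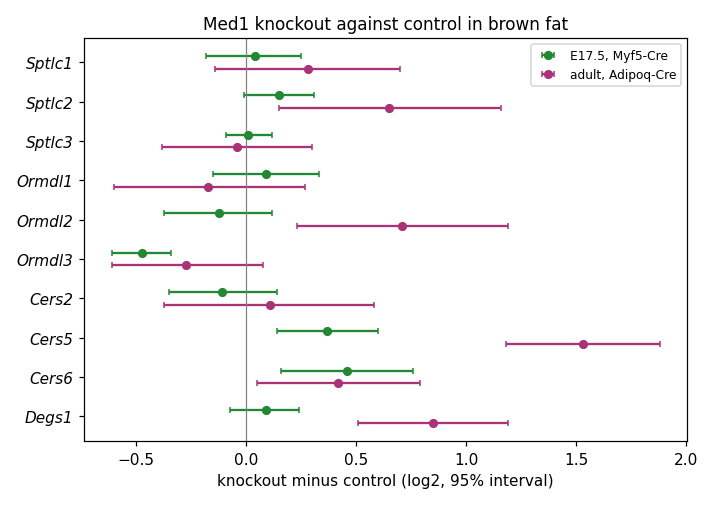
Knockout minus control log2 difference (x axis) of the 10 genes (y axis) in embryonic and adult brown fat, with 95% intervals from limma. Cers5 is 0.37 in the embryo and 1.53 in the adult, and Degs1 0.09 and 0.85.

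Markers of other cell types differed in level between the same brown fat groups. In a whole tissue, fewer cells of a type and less RNA per cell cannot be told apart. In the embryo the mean of 8 brown adipocyte markers was 8.25 to 8.89 in controls and 6.87 to 7.49 in knockouts (0 of 8 higher, 2 called lower), and Ucp1 read 7.23 to 8.34 in knockouts. The mean of 13 skeletal muscle markers was 5.71 to 6.93 in controls and 7.43 to 7.6 in knockouts (13 of 13 higher, 0 called), that of 9 fibroblast markers 8.28 to 8.72 and 9 to 9.17 (2 called higher), and that of 4 smooth muscle markers 6.02 to 6.4 and 6.56 to 6.74 (2 called higher). In the adult the mean of 6 macrophage markers was 5.99 to 6.15 in controls and 7.29 to 7.6 in knockouts (6 of 6 higher, 0 called). That of 9 fibroblast markers was 6.96 to 7.16 and 7.69 to 7.97 (9 of 9 higher, 0 called). For 7 adipocyte markers it was 9.53 to 9.74 and 8.48 to 9.16 (1 of 7 higher, 0 called), and for 8 brown adipocyte markers 8.79 to 9.83 and 8 to 8.57 (0 of 8 higher, 0 called). The mean of 6 macrophage markers was 6.23 to 6.52 in embryonic controls and 6.5 to 6.82 in knockouts (6 of 6 higher, 0 called), and that of 7 adipocyte markers 8.93 to 9.35 and 8.63 to 8.82 (1 of 7 higher, 0 called). The 4 smooth muscle markers averaged 4.6 to 4.84 in adult controls and 5.19 to 5.38 in knockouts (4 of 4 higher, 0 called). The 13 skeletal muscle markers averaged 3.06 to 4.31 in adult controls and 2.96 to 3.7 in knockouts (2 of 13 higher, 0 called). In the adult minus embryo comparison 2 of 6 macrophage markers were called higher and 1 of 7 adipocyte markers was called lower. Of 13 skeletal muscle markers 0 were positive there (median -1.45, 0 called). The mean of 6 endothelial markers overlapped between the groups at both ages (8.13 to 8.65 and 8.04 to 8.43 in the embryo, 6.54 to 6.82 and 6.56 to 6.67 in the adult). The mean of 7 epidermal markers was 3.25 to 3.52 over the embryonic and 2.66 to 2.74 over the adult arrays, with Krt10 at 4.58 to 5.13 and 3.39 to 4.01. The mean of 2 nerve and glia markers was 4.56 to 4.99 in embryonic controls and 4.18 to 4.3 in knockouts, and 4.51 to 4.85 and 3.13 to 3.59 in the adult, with 0 called at each age. Most of this lay in S100b, at 5.16 to 5.89 and 4.25 to 4.84 in the embryo and 6.46 to 6.8 and 3.76 to 4.67 in the adult. Sox10 overlapped in the embryo (3.83 to 4.09 and 3.76 to 4.23) and was low in the adult (2.55 to 2.9 and 2.51 to 2.52). The part of these cells in the values of Ormdl3, Cers5 and Degs1 was not tested.

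The rest of the pathway was read in 60 further genes in 5 lists: 8 in the remaining steps of ceramide synthesis, 15 that build on ceramide, 20 that break sphingolipids down, 10 of sphingosine 1-phosphate signalling and 7 that supply serine. In the cells S1pr3, a receptor for sphingosine 1-phosphate, was 9.03 ± 0.35 (SD, n = 4) in wild-type and 7.98 ± 0.15 in knockout cells, lower by 1.06 ± 0.12 (SE), with no overlap. That contrast is the one that chose the members, so the value is a description. Day by day, 13 of the 60 were called in wild-type cells, 4 up and 9 down, beside 9.07% of all genes, and 10 in knockout cells, 5 up and 5 down, beside 5.7%. By list, the wild-type calls were 1 down in the remaining synthesis steps, 3 down among those that build on ceramide, 1 up and 4 down in breakdown, 2 up in signalling, and 1 up and 1 down in serine supply. Sphk1, which phosphorylates sphingosine, rose by 1.69 ± 0.15 in wild-type cells (limma adjusted p = 2e-04) and by 1.16 ± 0.15 in knockout cells (0.0021). Lysosomal enzymes of breakdown were among the genes that fell, in wild-type and then in knockout cells: Asah1, acid ceramidase, by 0.84 ± 0.19 (0.024) and 0.77 ± 0.19 (0.048), and Galc, galactosylceramidase, by 0.86 ± 0.14 (0.0059) and 0.64 ± 0.14 (0.033). Ugcg, which puts glucose on ceramide, fell by 0.79 ± 0.19 in wild-type cells (0.035), and Slc1a5, a transporter of neutral amino acids, rose by 0.98 ± 0.25 (0.043) and 1.32 ± 0.25 (0.016). Called in both genotypes were also Plpp1, a lipid phosphate phosphatase (0.94 and 0.76), Fads3, a desaturase (-0.61 and -0.85), and Slc1a4, a transporter that carries serine (-0.79 and -0.69). Called in wild-type cells were S1pr3 (0.60), the ceramide transporter Cert1 (-0.50), the sphingomyelin synthase Sgms1 (-0.50), the ceramidase Asah2 (-0.61) and the hexosaminidase subunit Hexa (-0.91). Called in knockout cells were ceramide kinase, Cerk (0.62), the sphingomyelinase Smpd3 (0.52) and Phgdh (-1.12). A call in 1 genotype is not a difference between them. For the interaction of genotype and day limma called 0 of the 60, with 3 at an unadjusted p under 0.05, beside 4.24% of all genes. By source label none of these genes was called, but that grouping mixes both title days and cannot test these steps.

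In brown fat 1 of the 60 was called in the embryo, beside 1.16% of all genes, and 1 in the adult minus embryo comparison, beside 1.99%. These counts are near the shares over all genes. The 2 genes belong to serine supply and differed in opposite directions. Phgdh, the first enzyme of serine synthesis, was 4.47 ± 0.25 (SD, n = 3) in embryonic controls and 5.53 ± 0.23 (n = 4) in knockouts, and it rose by 1.05 ± 0.16 (2.08-fold; adjusted p = 0.046), the only one of the 60 called there. With any 1 of the 7 arrays left out, with the replicate block or with a trend in the moderation no gene was called in the embryo, Phgdh included. Shmt1, which interconverts serine and glycine in the cytosol, was 5.88 ± 0.087 (n = 2) in adult controls and 4.18 ± 0.14 in knockouts (-1.70 ± 0.15; 0.052). Limma called 0 of the 60 in the adult, beside 0.0271% of all genes. At an unadjusted p under 0.05 there were 11 of the 60, beside 13.6% of all genes. The knockout difference of Shmt1 was -1.65 ± 0.15 in the adult minus embryo comparison (0.0016), again the only one of the 60 called. The median difference over the 60 was 0.02 in the embryo and 0.10 in the adult.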

How the data were processed

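Trizol was used to extract the RNA and the GeneChip WT PLUS kit to label it, per the labels' protocols. The authors deposited log2 signals of the 19 arrays in 1 table. It was made with RMA, and Transcriptome Analysis Console is listed too, per the submitters' processing notes. No genome build or annotation was given in the sources used here. Of 41345 transcript clusters, 23521 had 1 gene symbol, 1814 several and 16010 none. The cluster with the highest mean was kept for the 1082 genes with several, which left 22180 genes, with no filter on dim ones. The table holds no depth, and the number of arrays limits the precision.

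Each experiment was fitted alone in limma 3.58.1 (R 4.3.3), with cell pairs as a block in the comparison over both days, and all 22180 p-values of a comparison were adjusted by Benjamini-Hochberg (threshold 0.05). The adult minus embryo comparison used the 11 brown fat arrays. Same-numbered arrays correlated, after removing group means, at 0.35 (day 0), 0.30 (day 2) and 0.33 (adult), and at 0.31, -0.02 and 0.11 in the embryo. All 10 members are named in the text, with every pathway gene called in a tested comparison and the 5 genes most like Sptlc3. Alternatives were other moderation, scaling, dim-gene filter, cluster rule, joint fit, block, source label days and each array left out. The members, the 5 pathway lists and the 10 marker lists were chosen with earlier results of these data known. None of the genes of the erythroid list was measured.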

Additional observations from a re-analysis of the deposited data

Results flagged for a closer look

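The knockout difference of Cers5 was larger in adult than in embryonic brown fat by 1.16 ± 0.16 (limma interaction, adjusted p = 0.0072), with both adult knockouts above both adult controls. That of Degs1 was larger by 0.76 ± 0.13 (0.017), and its embryonic groups overlapped. Both tests take their spread from the embryonic and adult arrays together, and neither gene was called in the adult alone.

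Within the embryonic knockouts, Sptlc2 read 8.41 on replicate 4 against 8.20 to 8.22 on the others, a gap of 0.904 of the range, above Dixon's 95% critical value. Sptlc3 read 3.16 on replicate 2, while the others shared the value 3.11. With 3 tied arrays any gap meets the criterion, so nothing is read from it. Of the 10 members, each tested in this group of 4, chance flags about 1 in 20.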

How the results depend on the processing

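Of 1393 values of single genes under other settings, 1275 stayed the same, 82 moved, 21 lost and 15 gained a call. Staying the same meant keeping direction and side of the threshold. Moving meant a changed sign with no call in either fit. For the knockout against wild-type cell values, the spread of the pair differences was the limit between same and moved instead. None of the called ones changed sign. The Sptlc3 difference over the cell pairs was -2.88 to -2.27 with a pair left out and -2.52 with no replicate block. By title it was -2.94 to -2.45 at day 0 and -2.99 to -1.68 at day 2 with an array left out. By source label it was -1.92 over the replicate 1 pairs and -3.11 over the replicate 2 pairs. The source label groups mix both title days, so the count by source label below does not test those days. Between days, the 2 members called in wild-type cells became 3 with a mean trend in the moderation or in a joint fit of all 19 arrays, 1 with quantile normalization, 0 by source label and 0 to 2 with an array left out.

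In the embryo the 1 member called became 0 with a mean trend in the moderation, 0 with the replicate block, 3 in a joint fit of all 19 arrays and 0 with any array left out. In the adult the 0 called became 1 with robust moderation, with median centring, with quantile normalization, with the dim-gene filter and with the replicate block (Cers5 in each), 4 in the joint fit (Cers5, Degs1, Sptlc2 and Ormdl2) and 0 with any array left out. The adult minus embryo count was 2 to 3 throughout. The causes were not tested. The joint fit borrows the spread of other experiments, and fits without an array have fewer arrays. Over all genes the joint fit called 6.88% in the embryo and 9.24% in the adult, against 0% in the embryo with the trend or the block. Replicate numbers are shared between groups but no label says what they share, and beside those named the block changed no member's call. Sptlc3 in adult brown fat is near the lower quartile, so a fall there would be hard to see. Groups of 2 arrays limit the adult and day comparisons.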
